A study of Mus musculus with 12 samples.

Results

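The 10 genes described here are the liver X receptors (LXRs) and genes that handle cholesterol downstream of or beside them in glia: Nr1h2, Nr1h3, Abca1, Abcg1, Apoe, Clu, Mylip, Lpcat3, Cyp46a1 and Soat1. They were chosen by gene symbol from a count table of 15089 genes, and all 10 were found and passed the filter on low counts. RNA had been extracted from cortical astrocytes of mice at postnatal day 16, captured with magnetic beads against ACSA-2, an astrocyte surface antigen, and 12 libraries were sequenced, 4 for each of 3 genotypes. The ctrl-2 mice carried 1 floxed and 1 intact Nmnat2 allele. The cKO;S/+ mice (cKOA in the sample labels) had both Nmnat2 alleles floxed, and so did the cKO;S/S mice (cKOB). Every mouse was heterozygous for Nex-Cre, and the labels place 1 Sarm1 null allele in ctrl-2 and cKO;S/+ and 2 in cKO;S/S, while the study's methods also allow ctrl-2 mice with intact Sarm1. Nex-Cre acts in post-mitotic glutamatergic neurons, so the deletion of Nmnat2, which encodes an NAD-synthesizing enzyme, is aimed at neurons rather than at the sorted cells, whereas the Sarm1 null allele is carried by every cell. The study gives cell yields by brain without saying which libraries are separate mice. The p-values measure the spread between these 12 samples, which may be technical.

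LXRs are nuclear receptors that bind oxysterols, the oxidized derivatives of cholesterol, and pair with retinoid X receptors on DNA. When activated they raise transcription of genes that move cholesterol out of the cell, among them the transporters ABCA1 and ABCG1 and the apolipoprotein APOE. In the brain, astrocytes make much of the cholesterol and secrete it on APOE particles that neurons take up through lipoprotein receptors.

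Library totals ran from 16506627 to 22159404 counts. The 12 astrocyte markers summed to 36206 to 41026 CPM, counts scaled to library size, in the ctrl-2 libraries. They summed to 31059 to 38828 CPM in those of cKO;S/+ and to 23707 to 36852 CPM in those of cKO;S/S, with replicate 15 the lowest. They were led by the glutamate transporter gene Slc1a2 at a mean of 13660 CPM, and none of the 12 passed the test between genotypes. RNA of other cells was present. The 14 microglia markers, led by Csf1r, summed to 2842 to 5807 CPM in the ctrl-2 libraries, against 5181 to 9390 in those of cKO;S/+ and 3973 to 5914 in those of cKO;S/S. The 10 oligodendrocyte markers summed to 3478 to 11446 CPM, 3352 to 6940 and 7003 to 8449 in the same order. No measured marker was at 0 in every library of a genotype, and 7 of the 8 markers listed for border macrophages and monocytes were measured. Immediate early genes, 18 in all and led by Jun, summed to 2344 to 4242 CPM in ctrl-2 mice, 4830 to 8680 in cKO;S/+ mice and 3675 to 6363 in cKO;S/S mice. Nmnat2 stood at 35.6 to 42.4 CPM in ctrl-2 and 20.3 to 29.4 CPM in cKO;S/+, and at 19.9 to 42.6 CPM in cKO;S/S, a range that took in every ctrl-2 library. Sarm1 reads were found in all cKO;S/S libraries at 4.8 to 7.2 CPM, against 5.7 to 12.8 CPM in ctrl-2, and whether those reads lie in the deleted part was not tested. Xist exceeded 100 CPM in 1 library of ctrl-2, 3 of cKO;S/+ and 2 of cKO;S/S and was under 0.392 CPM in the others, so the genotypes were not balanced for it. The study used both male and female mice, and the main model of the 3 groups holds no term for sex. A pair of libraries stood apart for the 10 genes: cKO;S/+ replicate 14 was the lowest of its group for 10 of 10, and cKO;S/S replicate 15 the lowest of its group for 7 of 10. Within its group, replicate 14 also had the lowest sums of microglia markers (5181 CPM) and of immediate early genes (4830 CPM). It had the highest oligodendrocyte marker sum of its group (6940 CPM) and was the only library there with Xist under 100 CPM. Replicate 15 had the lowest astrocyte marker sum of its group. What set these libraries apart was not tested.

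The members spanned 3 orders of magnitude. Per kilobase of exon, a scale on which genes can be compared, Apoe led in ctrl-2 at 3804 ± 395 CPM per kb (SD, n = 4), followed by Clu at 1125 ± 26.9, Abca1 at 69.3 ± 5.52 and Soat1 at 35.7 ± 1.83 CPM per kb. Nr1h2 came next at 25.2 ± 0.883, then Lpcat3 at 22.6 ± 2.07, Mylip at 18.4 ± 5.05, Cyp46a1 at 10.3 ± 1.57, Abcg1 at 9.06 ± 0.696 and Nr1h3 at 3.18 ± 0.274 CPM per kb. The ctrl-2 libraries of Nr1h2 and Lpcat3, of Lpcat3 and Mylip, and of Cyp46a1 and Abcg1 overlapped, and the other neighbours in this order did not. Apoe ranked 5 of 15089 genes by mean CPM over the 12 libraries and took 0.635% of all counts, Clu ranked 18 and Abca1 ranked 89. The order changed in cKO;S/+, where Mylip moved above Soat1, Nr1h2 and Lpcat3 to 37.4 ± 9.11 CPM per kb and Abcg1 moved above Cyp46a1 to 16.5 ± 3.77 CPM per kb, although the libraries of Mylip overlapped with those of Soat1, Nr1h2 and Lpcat3, and those of Abcg1 with Cyp46a1. In cKO;S/S Mylip lay above Lpcat3, at 22.6 ± 4.75 against 20.6 ± 1.98 CPM per kb, again with overlap.

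**Figure D1:**
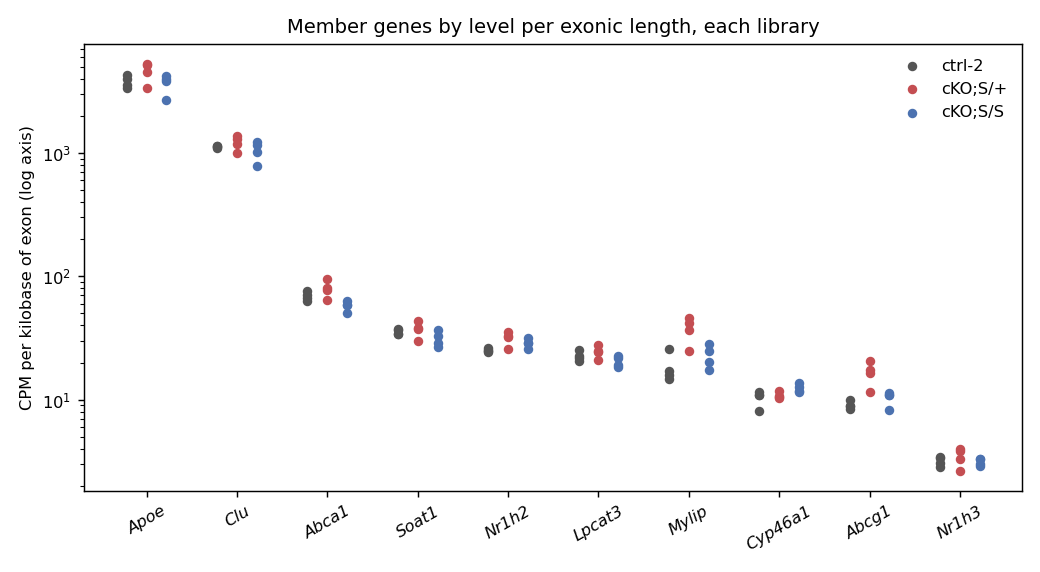
Level of each gene per exonic length, in CPM per kilobase on a log axis, with 1 point per library and the genotypes side by side. Apoe and Clu lie above 784 CPM per kb in every library and the other 8 genes below 94.6 CPM per kb.

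Among the 10 genes, 2 passed the test in cKO;S/+ against ctrl-2, both higher: Mylip at 2.04-fold and Abcg1 at 1.82-fold. Over all genes, 5.9% were called higher in this comparison and 1.38% lower. Every one of the 10 members had a fold change above zero, beside 7480 of all 15089 genes, but 8 members did not pass. The median log2 fold change of the 10 was 0.16, beside -0.002 over all genes tested. Some members were closely correlated over the libraries (r up to 0.91), so their directions are not independent. At an unadjusted p under 0.05, 3 members were higher and none lower, beside 14.3% and 9.25% of all genes. In cKO;S/S against ctrl-2 no member passed and 0% of all genes were called. There 4 of 10 members lay above zero, beside 8039 of all 15089 genes, and the median of the members was -0.04, beside 0.01. In cKO;S/+ against cKO;S/S no member and 0% of all genes passed either. Here 9 of 10 members lay above zero, beside 7678 of all 15089 genes, and the median of the members was 0.26, beside 0.004. The comparisons share libraries and are given side by side only. Tests throughout are edgeR's quasi-likelihood test, called at a p under 0.05 after Benjamini-Hochberg adjustment for all 15089 genes. These are RNA levels of a sorted cell mixture, so a larger number of cells of a type and more RNA per cell cannot be told apart.

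**Figure D2:**
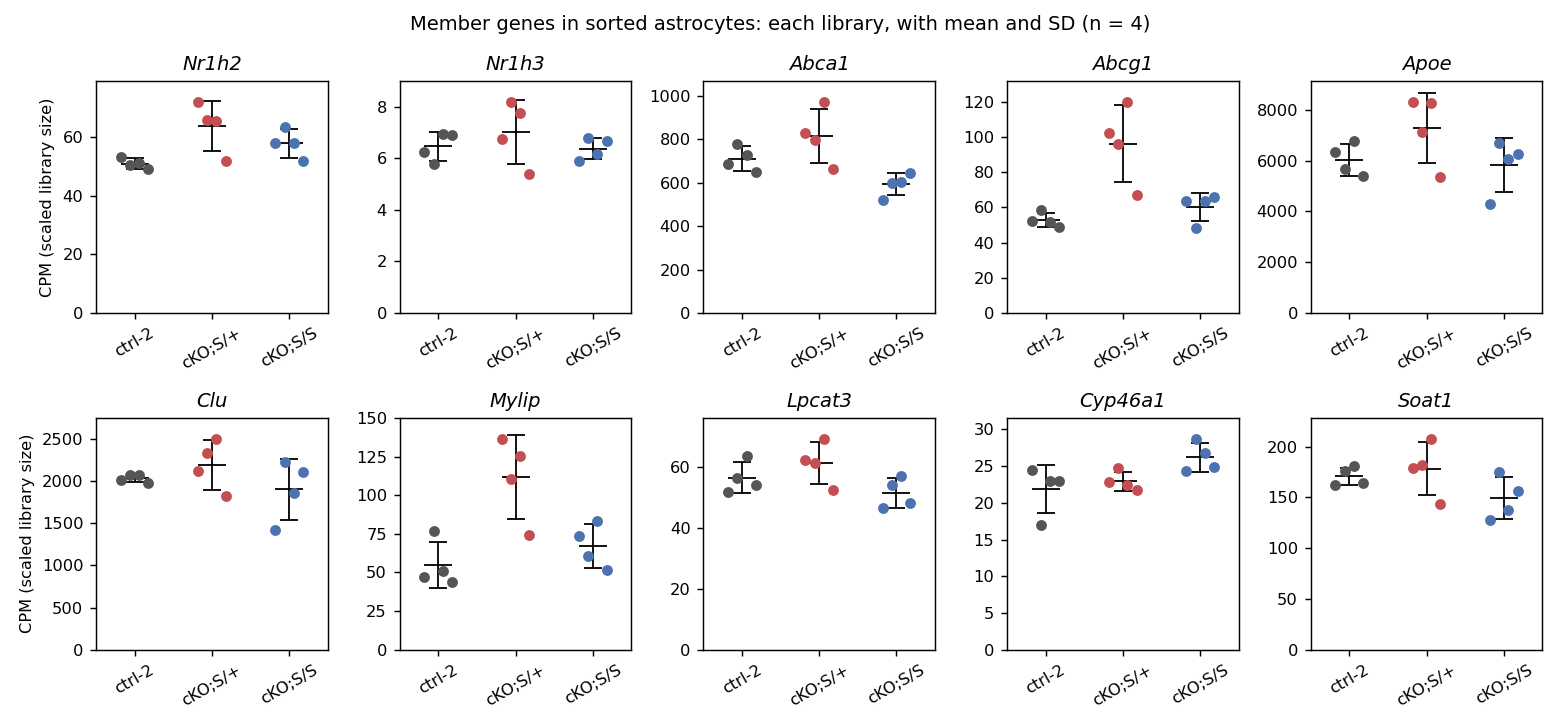
CPM of each gene in each of the 12 libraries, with the mean and SD of 4 libraries as a bar with whiskers. Abcg1 lies at 67.0 to 119.7 CPM in cKO;S/+ and at 48.6 to 58.3 CPM in ctrl-2, while the lowest cKO;S/+ library of Mylip, at 74.1 CPM, falls below the highest ctrl-2 library at 77.0 CPM.

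Of the receptors, Nr1h2 (LXR beta; Entrez 22260, chromosome 7, 44549616 to 44553965, mm10) stood at 53.2, 50.3, 51.1 and 49.0 CPM in ctrl-2 replicates 4 to 7. In cKO;S/+ replicates 8, 9, 10 and 14 it stood at 71.8, 65.8, 65.3 and 51.8 CPM, and in cKO;S/S replicates 15 to 18 at 58.0, 63.5, 58.1 and 51.6 CPM. The first 3 cKO;S/+ libraries exceeded all ctrl-2 libraries, and replicate 14 lay among them. Its log2 fold change was 0.32 (SE 0.0928, adjusted p = 0.0532) in cKO;S/+ against ctrl-2, just outside the threshold, and 0.18 (SE 0.0930, adjusted p = 0.458) in cKO;S/S against ctrl-2. Without cKO;S/+ replicate 14 the former was 0.41 with an adjusted p of 0.00315 by the same test, and the likelihood ratio test of edgeR (adjusted p = 0.0276) and DESeq2 (adjusted p = 0.0240) also placed it within the threshold with all libraries. Without that library 10.6% of all genes were called higher and 6.46% lower, by the likelihood ratio test 8.08% and 2.52%, and by DESeq2 8.66% and 3.7%. Nr1h2 was at 0.11 with the mean log2 CPM of the microglia markers as a covariate and at 0.20 with that of the immediate early genes (adjusted p of at least 0.997 by edgeR). With Xist as a covariate it was at 0.24 (adjusted p = 0.171), and without cKO;S/+ replicate 8 at 0.24 (adjusted p = 0.199).

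Nr1h3 (LXR alpha; Entrez 22259, chromosome 2, 91184061 to 91195116), the receptor known for activity in macrophages and liver, was the least abundant of the 10, with 98 to 163 reads per library. Its range was 5.78 to 6.94 CPM over the ctrl-2 libraries, 5.41 to 8.18 CPM over those of cKO;S/+ and 5.89 to 6.77 CPM over those of cKO;S/S, and the 3 groups overlapped. Its log2 fold change was 0.12 (95% interval -0.18 to 0.42) in cKO;S/+ and -0.02 (95% interval -0.32 to 0.28) in cKO;S/S, both against ctrl-2. Within a library, Nr1h2 exceeded Nr1h3 by 7.15 to 10.7 times per exonic length. The ratio of Nr1h3 to Nr1h2 was 0.126 ± 0.0129 in ctrl-2, against 0.110 ± 0.0138 for cKO;S/+ and 0.110 ± 0.0125 for cKO;S/S (SD, n = 4), and no difference between genotypes passed an exact permutation test (adjusted p of at least 0.457 over 6 tests of ratios, smallest unadjusted p possible 0.0286).

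The export transporters differed from each other. Abcg1 (Entrez 11307, chromosome 17, 31057694 to 31117981), which passes cholesterol to lipoprotein particles that already carry lipid, stood at 52.1, 58.3, 51.9 and 48.6 CPM in ctrl-2 replicates 4 to 7. In cKO;S/+ replicates 8, 9, 10 and 14 it stood at 102.2, 95.7, 119.7 and 67.0 CPM, and in cKO;S/S replicates 15 to 18 at 63.7, 48.3, 63.6 and 65.7 CPM. All 4 cKO;S/+ libraries lay above all 4 of ctrl-2 and all 4 of cKO;S/S, with replicate 14 much nearer to them than the other 3. Groups that did not overlap, with cKO;S/+ higher, were found for 6.53% of all genes against ctrl-2 and for 2.66% against cKO;S/S, and for 1 and 2 of the 10 members respectively. With cKO;S/+ lower, they were found for 4.8% and 2.82% of all genes and for no member. The log2 fold change of Abcg1 was 0.87 (SE 0.150, adjusted p = 0.0177) in cKO;S/+ against ctrl-2, 0.19 (SE 0.150, adjusted p = 0.614) in cKO;S/S against ctrl-2 and 0.67 (SE 0.149, adjusted p = 0.153) in cKO;S/+ against cKO;S/S.

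Abca1 (Entrez 11303, chromosome 4, 53030789 to 53159895), which loads cholesterol and phospholipid onto lipid-poor APOE, stood at 685.5, 779.9, 729.1 and 648.4 CPM in ctrl-2. It stood at 829.0, 794.9, 970.4 and 663.8 CPM in cKO;S/+ and at 521.6, 599.7, 602.9 and 642.1 CPM in cKO;S/S, in the order of replicates used above. The 3 upper cKO;S/+ libraries exceeded every ctrl-2 library, replicate 14 fell within ctrl-2, and all 4 cKO;S/S libraries lay below all 4 of ctrl-2 and all 4 of cKO;S/+. Groups with cKO;S/S wholly below ctrl-2 were found for 3.4% of all genes, and wholly above it for 2.62% and no member. The log2 fold change was 0.20 (SE 0.114, adjusted p = 0.318) in cKO;S/+ against ctrl-2, -0.26 (SE 0.114, adjusted p = 0.400) in cKO;S/S against ctrl-2 and 0.46 (SE 0.114, adjusted p = 0.153) in cKO;S/+ against cKO;S/S, so none of these passed over all genes.

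The promoter of Abca1 is shown because the transporter is a standard LXR target with a receptor element near its start site, known from human cells. The window covers 250 bases before and 50 after the RefSeq start on the minus strand (GRCm38.p6, chr4:53159846-53160145), and capitals mark the best match to the LXR motif, 2 repeats of a half-site spaced by 4 bases.
Abca1: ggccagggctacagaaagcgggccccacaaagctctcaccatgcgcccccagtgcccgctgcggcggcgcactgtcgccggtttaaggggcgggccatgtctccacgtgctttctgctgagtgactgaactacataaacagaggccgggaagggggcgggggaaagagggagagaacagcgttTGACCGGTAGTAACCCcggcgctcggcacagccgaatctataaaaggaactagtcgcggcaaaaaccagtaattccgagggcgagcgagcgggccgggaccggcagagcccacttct
The motif searched was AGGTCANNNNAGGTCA on both strands, and the match reads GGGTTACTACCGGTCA on the strand opposite to the one printed, with 3 mismatches in the 12 fixed letters, starting 67 bases before the start site. RefSeq windows were found for 8 of the 10 members, and Abca1 and Cyp46a1 were those with a match of at most 3 mismatches. Such a match is present in 21.9% of all 32851 windows of this length, and one of at most 2 mismatches in 3.02%.

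Apoe (Entrez 11816, chromosome 7, 19696244 to 19699188), the main apolipoprotein of astrocytes, stood at 6326, 5666, 6762 and 5383 CPM in ctrl-2. It stood at 8300, 7142, 8257 and 5357 CPM in cKO;S/+ and at 4274, 6678, 6055 and 6277 CPM in cKO;S/S. The first 3 cKO;S/+ libraries were the highest of all 12, replicate 14 was below every ctrl-2 library, and cKO;S/S replicate 15 was the lowest. For Apoe the log2 fold change was 0.27 (95% interval -0.10 to 0.63, adjusted p = 0.362) in cKO;S/+ against ctrl-2 and -0.05 (95% interval -0.42 to 0.31, adjusted p = 0.925) in cKO;S/S against ctrl-2. Without cKO;S/+ replicate 14 the former was 0.39 (adjusted p = 0.106), and without cKO;S/S replicate 15 the latter was 0.07 (adjusted p = 0.929).

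Clu (Entrez 12759, chromosome 14, 65968483 to 65981545) encodes clusterin, also called apolipoprotein J, a second apolipoprotein that astrocytes secrete and not a standard LXR target. It was nearly constant in ctrl-2, at 1978 to 2077 CPM, and wider in cKO;S/+ at 1823 to 2504 CPM and in cKO;S/S at 1418 to 2234 CPM, both of which enclosed the ctrl-2 range. Its log2 fold changes were 0.11 (95% interval -0.19 to 0.41) and -0.10 (95% interval -0.40 to 0.20) in cKO;S/+ and cKO;S/S against ctrl-2. Per exonic length, Apoe exceeded Clu by 3.38 ± 0.316 times in ctrl-2, against 3.76 ± 0.497 times for cKO;S/+ and 3.49 ± 0.154 for cKO;S/S (SD, n = 4). No difference of this ratio passed an exact permutation test (adjusted p of at least 0.457).

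Mylip (Entrez 218203, chromosome 13, 45389742 to 45411940), also called IDOL, encodes a ubiquitin ligase that marks lipoprotein receptors such as VLDLR and APOER2 for degradation, and had the largest difference of the 10. It stood at 47.4, 77.0, 50.7 and 44.0 CPM in ctrl-2, at 136.6, 110.4, 125.3 and 74.1 CPM in cKO;S/+ and at 73.7, 60.7, 83.6 and 51.5 CPM in cKO;S/S. The first 3 cKO;S/+ libraries exceeded all others, and replicate 14 fell below ctrl-2 replicate 5, the library with most microglia transcripts of its group. The log2 fold change was 1.03 (SE 0.216, adjusted p = 0.0221) in cKO;S/+ against ctrl-2, 0.30 (SE 0.215, adjusted p = 0.593) in cKO;S/S against ctrl-2 and 0.73 (SE 0.214, adjusted p = 0.155) in cKO;S/+ against cKO;S/S. The promoter of Mylip, on the plus strand (GRCm38.p6, chr13:45389492-45389791), is shown because Mylip had the largest difference. Its best stretch has 5 mismatches to the same motif, so nothing is in capitals, which says only that these letters are not in this window.
Mylip: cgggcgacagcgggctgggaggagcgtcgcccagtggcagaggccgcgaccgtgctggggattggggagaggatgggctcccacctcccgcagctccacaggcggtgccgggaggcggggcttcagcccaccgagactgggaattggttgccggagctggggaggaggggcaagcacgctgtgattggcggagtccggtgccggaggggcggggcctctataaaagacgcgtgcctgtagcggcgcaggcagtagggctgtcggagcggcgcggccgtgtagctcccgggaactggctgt

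The calls of Mylip and Abcg1 moved with single libraries and with the covariates tried. Each was lost by edgeR's quasi-likelihood test when any of ctrl-2 replicates 4, 6 and 7 or of cKO;S/+ replicates 8 and 10 was left out, with log2 fold changes of 0.74 to 0.86 and adjusted p of up to 0.0747 for Abcg1, and of 0.90 to 0.99 and up to 0.0820 for Mylip. Of all 15089 genes, 0 were called without ctrl-2 replicate 4, 6 or 7 or without cKO;S/+ replicate 8. Without cKO;S/+ replicate 10, 33 were called higher and 4 lower. Without cKO;S/+ replicate 14 both were larger, at 1.01 for Abcg1 (adjusted p = 0.000343) and 1.18 for Mylip (adjusted p = 0.00183). That library had the lowest microglia marker and immediate early gene sums of its group. Of the 14 microglia markers 10 were called higher in cKO;S/+ against ctrl-2, and 15 of 18 immediate early genes, beside 5.9% of all genes. The summed levels, as given above, overlapped between these groups for the microglia markers and did not for the immediate early genes. Neither sum passed the exact permutation test (adjusted p = 0.198 for each, smallest unadjusted p possible 0.0286). With the microglia markers as a covariate, the log2 fold changes were 0.42 for Abcg1 and 0.18 for Mylip, and with the immediate early genes 0.37 and 0.09, none of them past the threshold (adjusted p of at least 0.997). With either covariate, 0 of the 15089 genes were called in this comparison. With the oligodendrocyte markers they were 0.70 (adjusted p = 0.155) and 0.74 (adjusted p = 0.176), and with Xist 0.83 (adjusted p = 0.0749) and 0.91 (adjusted p = 0.0974). Among libraries with Xist over 100 CPM, Abcg1 stood at 48.6 CPM in the ctrl-2 library and 95.7 to 119.7 CPM in 3 of cKO;S/+, and Mylip at 44.0 CPM and 110.4 to 136.6 CPM. Among those under it, Abcg1 stood at 51.9 to 58.3 CPM in 3 ctrl-2 libraries and 67.0 CPM in 1 of cKO;S/+, and Mylip at 47.4 to 77.0 CPM and 74.1 CPM. With Xist in the model and cKO;S/+ replicate 14 left out, Abcg1 was at 1.15 (adjusted p = 0.00343) and Mylip at 1.22 (adjusted p = 0.0242). Every cKO;S/+ library left in that fit had Xist over 100 CPM, so it cannot separate Xist from genotype in that group. Many genes of the microglia and immediate early lists were called higher in cKO;S/+, so fits with these covariates cannot tell them apart from genotype. Beyond those fits, the part of microglia and of immediate early genes in these differences was not tested.

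**Figure D3:**
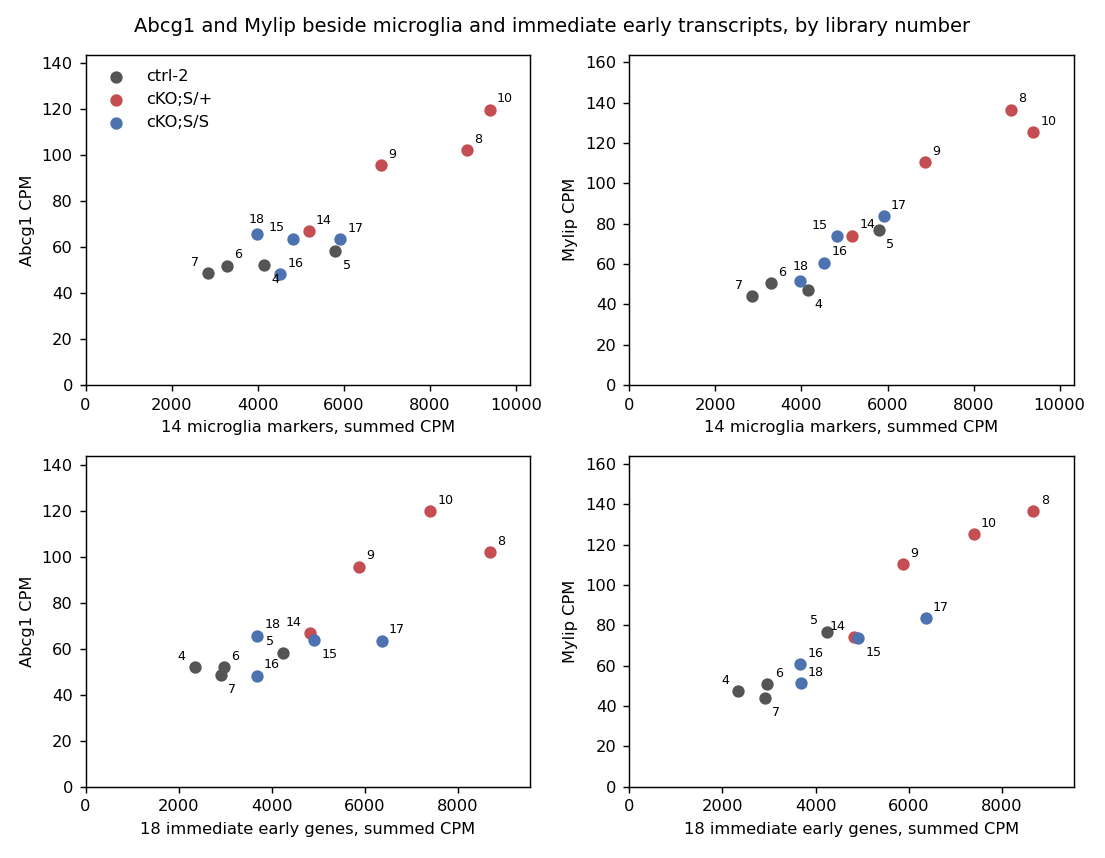
CPM of Abcg1 and of Mylip in each library, numbered by replicate, against the summed CPM of 14 microglia markers (upper) and of 18 immediate early genes (lower). The 3 libraries with the highest microglia sum, cKO;S/+ replicates 8, 9 and 10 at 6869 to 9390 CPM, are those with the most Abcg1 and Mylip.

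Lpcat3 (Entrez 14792, chromosome 6, 124663104 to 124704716) puts polyunsaturated chains into membrane phospholipids and is an LXR target in liver and macrophages. Its range was 51.9 to 63.8 CPM over the ctrl-2 libraries, 52.3 to 69.3 CPM over those of cKO;S/+ and 46.4 to 57.1 CPM over those of cKO;S/S, with overlap of all 3 groups. Its log2 fold change was 0.12 (adjusted p = 0.491) in cKO;S/+ against ctrl-2, -0.14 (adjusted p = 0.593) in cKO;S/S against ctrl-2 and 0.25 (unadjusted p = 0.0218, adjusted p = 0.199) in cKO;S/+ against cKO;S/S by edgeR. In the GENCODE annotation 25.3% of its exonic bases lie over exons of Emg1 on the opposite strand, and the strand setting of the counting is not given in the sources used here, so its counts are uncertain. No other member shared exonic bases with another annotated gene.

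Cyp46a1 (Entrez 13116, chromosome 12, 108334381 to 108362234) makes 24S-hydroxycholesterol, an LXR ligand and the main form in which the brain disposes of cholesterol, and is known mainly from neurons. It stood at 24.5, 16.99, 23.0 and 23.0 CPM in ctrl-2, at 22.8, 24.7, 22.4 and 21.7 CPM in cKO;S/+ and at 24.3, 28.7, 26.8 and 24.9 CPM in cKO;S/S. It was the only member with its highest mean in cKO;S/S, and that group overlapped with ctrl-2 by 1 library, since replicate 15 lay just below ctrl-2 replicate 4. The log2 fold change was 0.07 (adjusted p = 0.750) in cKO;S/+ and 0.26 (SE 0.108, unadjusted p = 0.0323, adjusted p = 0.388) in cKO;S/S, both against ctrl-2 by edgeR. The 11 neuron markers, led by Syt1, summed to 76.8 to 217.7 CPM over the ctrl-2 libraries, 110.3 to 207.9 CPM over those of cKO;S/+ and 182.7 to 301.6 CPM over those of cKO;S/S, and their part in the level of Cyp46a1 was not tested.

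Soat1 (Entrez 20652, chromosome 1, 156428108 to 156474328) esterifies cholesterol for storage. Its range was 162.6 to 180.6 CPM over the ctrl-2 libraries, 144.0 to 207.7 CPM over those of cKO;S/+ and 127.8 to 175.0 CPM over those of cKO;S/S. The cKO;S/+ libraries enclosed the ctrl-2 range, and 3 of the 4 cKO;S/S libraries lay below it. For Soat1 the log2 fold change was 0.06 (95% interval -0.18 to 0.31) in cKO;S/+ and -0.19 (95% interval -0.44 to 0.05) in cKO;S/S, both against ctrl-2, and 0.26 (unadjusted p = 0.0417, adjusted p = 0.254) in cKO;S/+ against cKO;S/S by edgeR.

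**Figure D4:**
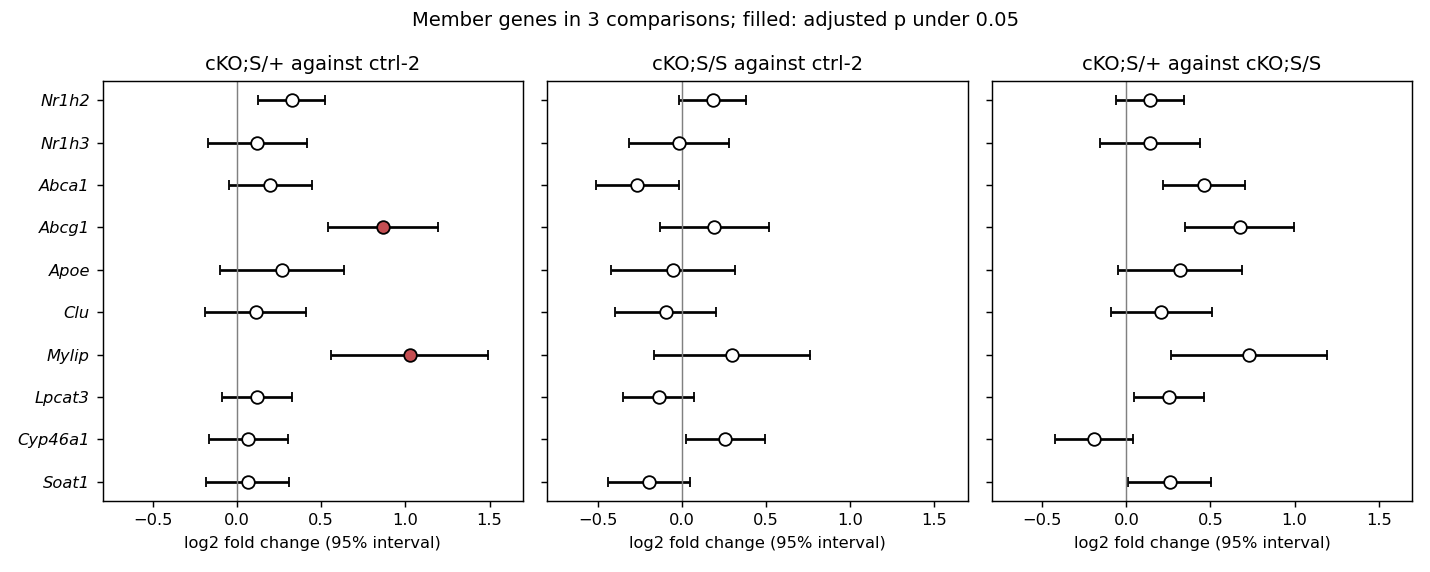
Log2 fold change of each gene with its 95% interval in the 3 comparisons of genotypes, filled where the adjusted p is under 0.05. Mylip and Abcg1 are filled in cKO;S/+ against ctrl-2, at 1.03 and 0.87, and no gene is filled in the other comparisons.

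Between the mutants, 5 of the 10 members had an unadjusted p under 0.05 with cKO;S/+ higher (Abca1, Abcg1, Mylip, Lpcat3 and Soat1) and none with cKO;S/+ lower, beside 9.17% and 9.11% of all genes. By edgeR's quasi-likelihood test 0% of all genes were called in either direction there. The likelihood ratio test and DESeq2 each called 3 members higher, Abca1, Abcg1 and Mylip, and limma-voom called none. The shares of all genes past the threshold were 2.01% (higher) and 1.15% (lower) by the likelihood ratio test, 2.62% and 1.52% by DESeq2 and 0% by limma-voom. Leaving out cKO;S/+ replicate 14 gave 5 calls by the quasi-likelihood test, beside 5.73% of all genes higher and 5.38% lower, with log2 fold changes of 0.81 for Abcg1 (adjusted p = 0.00271), 0.55 for Abca1 (adjusted p = 0.0102) and 0.88 for Mylip (adjusted p = 0.0160). In cKO;S/S against ctrl-2 the quasi-likelihood test, the likelihood ratio test, DESeq2 and limma-voom called no member, beside 0.219% of all genes higher and 0.0994% lower by the likelihood ratio test and 0.205% and 0.179% by DESeq2. At an unadjusted p under 0.05 by edgeR, Cyp46a1 was higher there and Abca1 (unadjusted p = 0.0368, adjusted p = 0.400) lower, 1 member each, beside 6.79% and 4.87% of all genes.

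Around the 10 members, 6 lists of the same pathway were counted in cKO;S/+ against ctrl-2. As background, 5.9% of all genes were called higher and 1.38% lower. Of 8 LXR partners and coregulators, 2 were higher and none lower. Rxrb, a retinoid X receptor that pairs with LXRs, rose from 31.6 ± 2.18 to 40.5 ± 3.30 CPM (log2 fold change 0.36, adjusted p = 0.0282), and Gps2, a subunit of the corepressor complex that holds LXR targets silent, from 47.2 ± 0.969 to 56.6 ± 5.06 CPM (log2 fold change 0.26, adjusted p = 0.0497). Rxra, with a log2 fold change of 0.38 (adjusted p = 0.0635), did not pass. The median of the list was 0.08.

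Of 9 further LXR target genes measured, 2 were higher and none lower, with a median of 0.03. Lpl, lipoprotein lipase, which frees fatty acids from lipoproteins, stood at 11.4, 13.2, 9.0 and 8.8 CPM in ctrl-2 and at 47.6, 46.9, 64.2 and 15.4 CPM in cKO;S/+, beside 10.9 to 13.9 CPM in cKO;S/S. The first 3 cKO;S/+ libraries were far above the rest, and replicate 14 was just above it, so the log2 fold change of 2.04 (SE 0.322, adjusted p = 0.0141) came with groups that did not overlap. Arl4c, a small GTPase known to help carry cholesterol to ABCA1, rose from 81.0 ± 14.6 to 149.4 ± 37.3 CPM (log2 fold change 0.88, adjusted p = 0.0235). Of the LXR targets of fatty acid synthesis, Srebf1, which encodes their transcription factor, had a log2 fold change of 0.17 (adjusted p = 0.417), Fasn of -0.13 (adjusted p = 0.499) and the desaturase gene Scd2 of -0.31 (adjusted p = 0.189). Srebf1 and Fasn were chosen for mention after their values were seen.

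None of 10 other sterol and phospholipid transporters passed, and their median was -0.06. Abca8a was at -0.58 (adjusted p = 0.0714) and Abca9 at 0.48 (adjusted p = 0.116). Of 13 lipoprotein components and receptors, 1 was higher and 1 lower, with a median of 0.01. Apoc1, a small apolipoprotein that neighbours Apoe on chromosome 7, was at 2.2 to 4.4 CPM in ctrl-2 and at 10.3, 8.5, 11.8 and 2.8 CPM in cKO;S/+. Its replicate 14 lay within ctrl-2, and the log2 fold change was 1.45 (SE 0.389, adjusted p = 0.0420). Vldlr, which encodes a receptor for APOE particles, fell from 79.9 ± 8.78 to 57.1 ± 9.80 CPM (log2 fold change -0.48, adjusted p = 0.0288). Lrp8, which encodes APOER2, had a log2 fold change of -0.38 (adjusted p = 0.149). MYLIP acts on the proteins of these 2 genes, and the RNA levels given here do not show that action.

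Of 15 genes of intracellular cholesterol transport, 2 were higher and 1 lower, with a median of 0.14. Gramd1a, which moves cholesterol from the plasma membrane to the endoplasmic reticulum, rose from 93.2 ± 5.08 to 144.3 ± 26.0 CPM (log2 fold change 0.63, adjusted p = 0.0268). Stard3, a sterol carrier of late endosomes, rose from 23.5 ± 1.67 to 33.0 ± 7.28 CPM (log2 fold change 0.49, adjusted p = 0.0413), and Stard4, a soluble sterol carrier, fell from 24.0 ± 1.19 to 17.2 ± 3.49 CPM (log2 fold change -0.48, adjusted p = 0.0442). None of 7 enzymes of oxysterols and cholesterol esters passed, with a median of 0.20, and the smallest p belonged to Cyp27a1, which makes 27-hydroxycholesterol (log2 fold change 0.69, adjusted p = 0.0645), Lipe (0.30, adjusted p = 0.110) and the lipid droplet gene Plin2 (0.30, adjusted p = 0.161). Each of the 9 calls in these lists was lost when 1 of 4 to 10 single libraries was left out, and also with each of the Xist, microglia, oligodendrocyte and immediate early gene covariates (adjusted p of at least 0.0705). Over all genes, 0 were called without ctrl-2 replicate 4, 6 or 7 or without cKO;S/+ replicate 8. With the covariates, 0 of all genes were called higher, and 2 were called lower with Xist and 0 with the others. Of the microglia markers, 10 of 14 were called higher in cKO;S/+ against ctrl-2. With these markers as a covariate, the log2 fold change was 0.89 for Lpl, 0.39 for Apoc1, 0.14 for Arl4c, 0.10 for Rxrb, 0.12 for Gps2, 0.33 for Gramd1a, 0.065 for Stard3, -0.23 for Vldlr and -0.22 for Stard4. The call of Gps2 was also lost with upper-quartile scaling (adjusted p = 0.0730), RLE scaling (adjusted p = 0.0501), limma-voom (adjusted p = 0.0554), the fit of the 2 groups alone (adjusted p = 0.0746) and Xist without cKO;S/+ replicate 14 (adjusted p = 0.0543). Those of Apoc1 and Stard3 were also lost with limma-voom and with the 2 groups alone, and those of Vldlr and Stard4 with the 2 groups alone. In the other 2 comparisons none of the 6 lists had a member past the threshold.

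**Figure D5:**
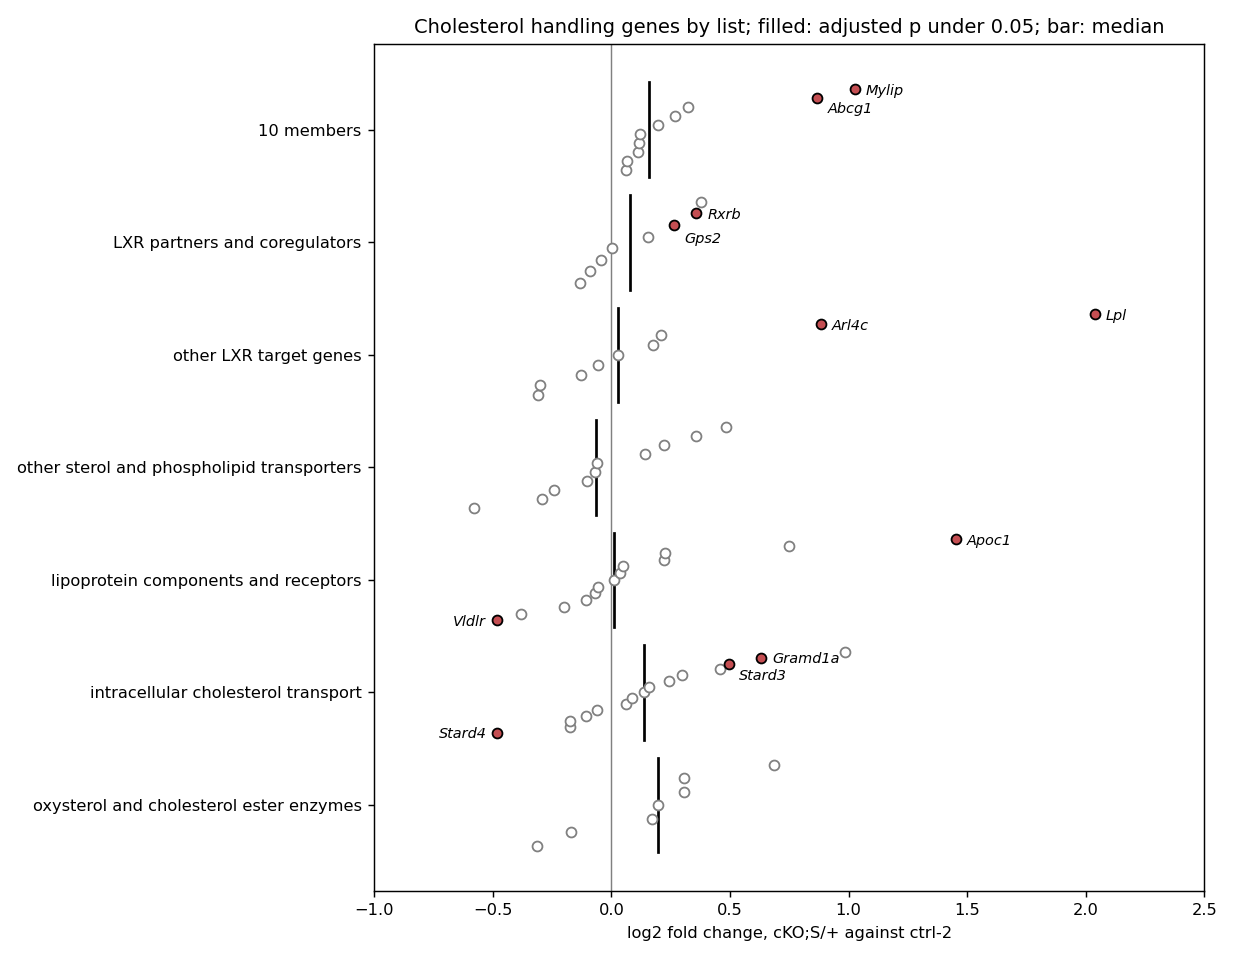
Log2 fold change in cKO;S/+ against ctrl-2 of the 10 members and of 6 pathway lists, 1 point per gene, filled where the adjusted p is under 0.05, with the median of each list as a bar. Medians lie between -0.06 and 0.20, and Lpl at 2.04, Apoc1 at 1.45 and Mylip at 1.03 stand farthest to the right.

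Across the 12 libraries, the genes whose log2 CPM followed a member most closely were described by Pearson's r among 10575 genes with a mean of at least 10 CPM, for the 9 members above that mean and so not for Nr1h3. For Mylip these were Fam46c (r = 0.99), Lpin2 (r = 0.99) and Irf8 (r = 0.99), the last of which encodes a transcription factor of microglia. For Abcg1 they were Gbp9 (r = 0.98), Ifih1 (r = 0.97), which encodes a sensor of double-stranded RNA, and Pld3 (r = 0.97). For Apoe they were Srebf1 (r = 0.97), the LXR target and sterol-regulated transcription factor gene, Echs1 (r = 0.96) and Agt (r = 0.95). Abca1 was followed most closely by Tmco1 (r = 0.97), Tpp1 (r = 0.95) and Fuca2 (r = 0.94), Clu by Scara3 (r = 0.96), Gprc5b (r = 0.95) and Prdx6 (r = 0.93), and Soat1 by Abcd2 (r = 0.97), Slc23a2 (r = 0.95) and Bloc1s6 (r = 0.93). For Nr1h2 they were Arap1 (r = 0.98), Scarna2 (r = 0.97) and Snx29 (r = 0.97), for Lpcat3 Tmem115 (r = 0.94), Dnajb9 (r = 0.92) and Lap3 (r = 0.92), and for Cyp46a1 Otud7a (r = 0.93), Ano8 (r = 0.89) and Micalcl (r = 0.88). After the group means were subtracted these 27 values ran from 0.90 to 0.98. Among the members themselves, Clu and Soat1 (r = 0.91), Abcg1 and Mylip (r = 0.90), Apoe and Clu (r = 0.86) and Abca1 and Soat1 (r = 0.86) were the closest pairs, and Abca1 and Cyp46a1 (r = -0.46) the farthest apart. After the group means were subtracted, r was 0.67 for Abcg1 and Mylip, against 0.91 for Clu and Soat1, 0.84 for Apoe and Clu and 0.83 for Abca1 and Soat1. The libraries share genotype, depth and cell makeup, and these values are a description over 12 libraries.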

How the data were processed

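Total RNA of cortical astrocytes, captured with anti-ACSA-2 beads from mice at postnatal day 16, was sequenced in 12 libraries, 4 per genotype. The deposited table holds raw counts of 15089 genes, made by the authors from reads on mm10. Tools listed in the submitters' processing notes are edgeR 4.2.1, Subread 2.0.3 with featureCounts, STAR 2.7.10a and FastQC 0.11.5. For annotation and strand, nothing is given in the sources used here. Log2 CPM columns that the authors deposited were not used. Their comparison columns (signed fold changes, log2 fold changes, p-values and adjusted p-values) were deposited in the same table and were not used either. No columns belonged to another series.

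Counts were fitted in 1 model of 3 groups by edgeR 4.0.16 and its quasi-likelihood test (R 4.3.3, TMM scaling, 9 residual degrees of freedom), with two-sided p-values adjusted by Benjamini-Hochberg for all 15089 genes. The filter (a minimum count of 10 and a minimum total of 15) removed 0 genes. Levels are CPM of TMM-scaled library sizes, divided by the deposited exonic length where genes are compared. Intervals are 95%. Library totals of 16506627 to 22159404 counts gave each member at least 98 reads per library. Ratios and summed markers were compared by exact permutation tests of 4 against 4 libraries. The script was tested on simulated data. Promoter windows came from RefSeq (GRCm38.p6).

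The alternatives were upper-quartile and RLE scaling, removal of Rn45s, other filters, edgeR's likelihood ratio test and robust fit, limma-voom (limma 3.58.1), DESeq2 1.42.0, each pair of groups alone, each library left out, and Xist, microglia or oligodendrocyte markers as a covariate. Covariates from gene lists were the mean log2 CPM of the list, not the summed CPM, and that of Xist was its log2 CPM. The covariate of immediate early genes, and Xist without cKO;S/+ replicate 14, were chosen after seeing the data. The latter leaves only libraries with Xist over 100 CPM in cKO;S/+, so it cannot separate Xist from genotype there. Named genes were all members, Nmnat2 and Sarm1, the 3 genes with the smallest p in cKO;S/+ against ctrl-2 of each pathway list, the leading markers, and the 3 genes most correlated with each member with a mean of at least 10 CPM. Some genes under this rule are not reported here. The members and lists were chosen with earlier results of these data known.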

Additional observations from a re-analysis of the deposited data

Results flagged for a closer look

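Of 120 groups of 4 libraries examined, 6 held a library set apart from the other 3 by Dixon's criterion (gap over range), and chance alone gives about 1 in 20, which is 6. Abcg1 in cKO;S/S replicate 16 was at 48.3 CPM, with the nearest library at 63.6 CPM. The per-length ratio of Apoe to Clu in cKO;S/S replicate 17 was 3.72, with the nearest at 3.44. Rxrb in ctrl-2 replicate 7 was at 28.3 CPM, with the nearest at 32.3 CPM. Arl4c in ctrl-2 replicate 5 was at 102.9 CPM, with the nearest at 74.4 CPM. Lrp8 in ctrl-2 replicate 4 was at 210.7 CPM, with the nearest at 255.1 CPM. Gramd1a in cKO;S/S replicate 18 was at 90.0 CPM, with the nearest at 134.1 CPM.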

How the results depend on the processing

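No paired analysis was made, because the labels used here name no litter or pair that links libraries of different genotypes. In cKO;S/+ against ctrl-2 the calls of Abcg1 and Mylip held with RLE or upper-quartile scaling, without Rn45s and with a filter at a mean of 5 CPM. They also held with the robust fit, the likelihood ratio test, limma-voom, DESeq2, and the 2 groups alone. The setting without a filter repeats the main fit, since the filter removed 0 genes. The 2 calls did not hold with Xist, microglia, oligodendrocyte or immediate early gene covariates, where 0 members were called. The all-gene calls there were 0 higher and 2 lower with Xist and 0 and 0 with the others. With 1 library left out, members called higher ranged from 0 to 3, and all genes from 0 to 1604 higher and 0 to 974 lower. The 2 groups alone gave 562 higher and 106 lower. Against 890 higher and 208 lower (81.1% higher), upper-quartile scaling gave 805 and 371 (68.5%), DESeq2 1306 and 559 (70%) and the likelihood ratio test 1219 and 380. In cKO;S/S against ctrl-2 the likelihood ratio test gave 33 and 15, DESeq2 31 and 27, and leaving out libraries 0 to 1 and 0 to 4. In cKO;S/+ against cKO;S/S the likelihood ratio test gave 303 and 173, DESeq2 396 and 229, and Xist without cKO;S/+ replicate 14 385 and 213, each with 3 members higher. Leaving out libraries gave 0 to 865 and 0 to 812, with 0 to 5 members. The causes were not tested.

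Directions turned for these log2 fold changes, none past the threshold under the setting named. In cKO;S/+ against ctrl-2 the microglia covariate gave Abca1 -0.070, Lpcat3 -0.059, Soat1 -0.079, Abca9 -0.17 and Plin2 -0.048, and the immediate early gene covariate Lpcat3 -0.069, Arl4c -0.021, Scd2 0.049 and Abca9 -0.081. Soat1 was at -0.020 with Xist and -0.0094 with oligodendrocyte markers, and Cyp46a1 at -0.011 with Xist and without cKO;S/+ replicate 14. In cKO;S/S against ctrl-2 the immediate early gene covariate gave Abcg1 -0.041 and Mylip -0.13, and in cKO;S/+ against cKO;S/S the microglia covariate gave Nr1h2 -0.0045. With single libraries left out, Cyp46a1 ranged from -0.037 to 0.13 and Soat1 from -0.020 to 0.15 in cKO;S/+ against ctrl-2, and Nr1h3 from -0.070 to 0.019, Apoe from -0.12 to 0.071 and Clu from -0.18 to 0.023 in cKO;S/S against ctrl-2. Depth was lowest for Nr1h3, with 98 to 163 reads per library.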
